A study of Capra hircus with 20 samples.

Results

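The hypothalamus of female Jining grey goats was compared between 6 months (M6, labelled 180 day) and 2 months (M2, labelled 60 day) of age. The comparison took the 5 libraries of each of these stages by their labels, 10 of the 20 libraries of the series, and covered every gene with a value. The remaining 10 libraries, from goats of 1 day (D1) and 120 days (M4), entered the fit to estimate the spread and are shown only beside M2 and M6. Each library was made from the hypothalamus of 1 untreated goat with rRNA removed and strand kept, and no group carried an agent or an altered allele. The goats came from a single farm and were slaughtered on the same day, so age and date of birth cannot be told apart. The tissue was not sorted, and the borders of the dissection and the state of the estrous cycle are not given in the sources used here.

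The hypothalamus holds scattered groups of neurons that each make their own peptides. Neurons with gonadotropin-releasing hormone (GnRH, from GNRH1) drive the pituitary, kisspeptin neurons (KISS1) that also make neurokinin B (TAC3) and dynorphin (PDYN) set their rhythm, and puberty follows when their pulses become more frequent. The magnocellular neurons make oxytocin (OXT) and vasopressin (AVP), while the lateral hypothalamus makes orexin (HCRT) and melanin-concentrating hormone (PMCH). The comparison of M6 with M2 asks which genes differ between goats of these ages, in a study of sexual maturation.

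The values were FPKM, the fragments of a gene relative to the length of its exons and the mapped reads in total, as the authors deposited them, and they summed to between 297889 and 377479 in the 10 libraries. Read depth could not be recovered from them. Between 15754 and 17407 genes were above 0, with means of 16521 at M2 and 16735 at M6 (two-sided exact permutation test, p = 0.524). Across genes, which are not independent replicates, Pearson's correlation of log2(FPKM + 0.1) was 0.894 at the median for the 20 pairs that shared a stage and 0.895 for the 25 pairs of an M2 with an M6 library. KLHDC1, a kelch domain gene at chr10:60292061-60331139 (ARS1.2), took 23.9% of the summed FPKM in M2-3 and 9.83% in M6-3, against at most 4.73% in the other 8 libraries. Among the M2 and M6 libraries, the quality weights of limma were lowest in M2-1 (0.343), M2-3 (0.357) and M6-3 (0.464). M4-1, which stayed in the fits, had a weight of 0.393. Values without these 3 libraries are given beside several of the results. Among markers of the region, NKX2-1, a transcription factor of the ventral hypothalamus, was between 0 and 2.26 FPKM, and GHRH, which encodes growth hormone-releasing hormone, was listed at 0 in all 10 libraries. These do not stand for all markers of the region. POMC was also low, but OXT, AVP, HCRT, PMCH, CARTPT, TRH, SIM1 and OTP were far higher in single or several M6 libraries, as given below.

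No gene passed the test between M6 and M2. Of the 16771 genes tested with limma, 0 (0%) were differentially expressed genes (DEGs), defined by an adjusted p (Benjamini-Hochberg) below 0.05 together with a log2 fold change of 1 or more in size. At an unadjusted p under 0.05 there were 1030 genes (6.14%), split into 546 (3.26%) with higher and 484 (2.89%) with lower values at M6. With median-ratio scaling of the libraries the same threshold gave 415 higher and 618 lower genes, so the higher genes were 40.2% of them against 53.0% with the FPKM as deposited. In 127 genes (0.757%) the 5 M6 libraries and the 5 M2 libraries did not overlap, with 86 genes (0.513%) above and 41 genes (0.244%) below M2. The smallest adjusted p was 0.0903, in ATP13A5, and the next was 0.746. The median log2 fold change of all genes was 0.02, and 51.9% of the genes were above 0. The median standard error was 0.36 and the median 95% confidence interval reached 0.75 to each side on the log2 scale. This interval is for a gene taken alone, and the adjustment over all genes asks for larger differences.

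**Figure D1:**
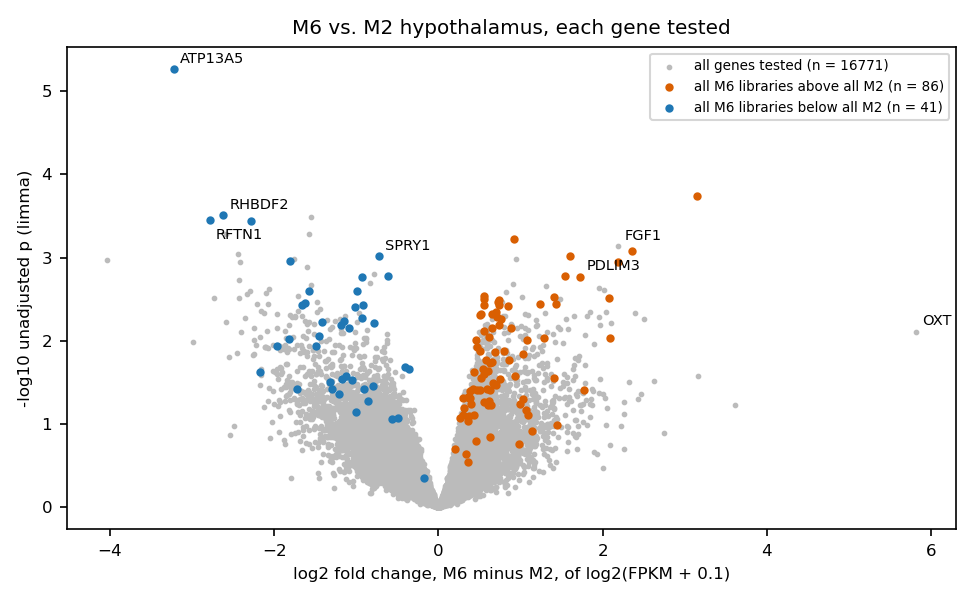
Each point is a gene, with the log2 fold change of M6 minus M2 on the x axis and the -log10 of the unadjusted limma p on the y axis. Orange points are the 86 genes in which every M6 library was above every M2 library, and blue points are the 41 genes in which every M6 library was below. ATP13A5 lies apart at a log2 fold change of -3.22, while OXT has the largest positive value, 5.81, at an unadjusted p of 0.0078.

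The named genes below are the 12 of smallest unadjusted p in each direction among genes with a symbol, a mean of at least 1 FPKM and no overlap between the stages. They were chosen by this comparison itself, so their values are a description. A total of 65 higher and 30 lower genes met these conditions.

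ATP13A5, which encodes a P-type ATPase that transports cations, lies at chr1:73775765-73891961 (ARS1.2). It was at 7.37, 2.71, 2.93, 3.64 and 2.70 FPKM in M2-1 to M2-5. In M6-1 to M6-5 it was at 0.532, 0.163, 0, 1.38 and 0.285 FPKM. Every M6 library was below every M2 library, and the highest M2 value came from M2-1. The means were 3.87 ± 1.99 (SD, n = 5) at M2 and 0.472 ± 0.544 at M6, which is 8.20-fold lower in mean FPKM. The log2 fold change was -3.22 (SE 0.53, 95% confidence interval -4.32 to -2.12, unadjusted p = 5.4e-06, adjusted p = 0.0903, limma). Leaving out each library in turn kept it between -3.70 and -2.73, and without M2-1, M2-3 and M6-3 together it was -2.48. Its adjusted p was 0.0075 with a pseudocount of 1 and 0.0035 without M6-4, and between 0.0600 and 0.999 under the other alternatives.

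RFTN1 and RHBDF2 had the next largest differences among the named lower genes. RFTN1 (chr1:153165651-153399414) encodes raftlin, a protein of lipid rafts. It was at 4.74, 5.32, 12.95, 3.25 and 2.13 FPKM at M2 and at 1.02, 0.0870, 0.525, 1.21 and 0.867 FPKM at M6, so the lowest M2 library was above the highest M6 library (log2 fold change -2.78, SE 0.65, adjusted p = 0.746). RHBDF2 (chr19:54473111-54497903), an inactive rhomboid protein that guides the sheddase ADAM17 to the cell surface, was at 0.480, 2.17, 5.18, 0.326 and 0.619 FPKM at M2. Its M6 values were 0.128, 0, 0.00483, 0.175 and 0.264 FPKM (log2 fold change -2.62, SE 0.60, adjusted p = 0.746). In both genes M2-3 held the highest value. Without M2-1, M2-3 and M6-3 the differences were -2.26 and -2.02.

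The differences of the other named lower genes were smaller. SPRY1, an inhibitor of receptor tyrosine kinase signalling, ranged from 11.2 to 14.4 FPKM at M2 and from 5.61 to 10.9 FPKM at M6 (log2 fold change -0.73, SE 0.19). HRH2 encodes the histamine H2 receptor and ranged from 3.52 to 9.83 FPKM at M2 and from 1.04 to 3.42 FPKM at M6 (-1.58, SE 0.46), so the nearest libraries of the stages almost touched. SGMS2, a sphingomyelin synthase, was at 26.4, 20.2, 26.04, 7.93 and 8.74 FPKM at M2 and at 7.09, 5.67, 1.198, 6.14 and 5.54 FPKM at M6. The difference in SGMS2 was -1.81, and it was -0.87 without M2-1, M2-3 and M6-3, which held the high and the low ends. MPZL1, a cell surface glycoprotein that binds the phosphatase SHP-2, was at 25.3 ± 5.59 FPKM at M2 and 16.3 ± 2.16 FPKM at M6 (SD, n = 5 each).

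LMNB1, which encodes lamin B1 of the nuclear envelope, ranged from 4.98 to 10.8 FPKM at M2 and from 2.60 to 3.76 FPKM at M6 (log2 fold change -0.99, SE 0.29). BRCA2, a gene of DNA repair by homologous recombination, ranged from 1.54 to 2.77 FPKM at M2 and from 0.285 to 1.17 FPKM at M6 (-1.66, SE 0.51). IMPDH1, an enzyme of guanine nucleotide synthesis, was at 5.00 ± 0.531 FPKM at M2 and 2.71 ± 0.986 FPKM at M6. GPATCH2L and the LIM protein gene WTIP completed the 12, with log2 fold changes of -0.92 and -1.01, the latter -0.54 without M2-1, M2-3 and M6-3. No named lower gene other than ATP13A5 had an adjusted p below 0.746.

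Among the 12 named higher genes, PDLIM3 and CHST9 had the largest differences. PDLIM3 (chr27:29810876-29839762), a PDZ and LIM domain protein bound to actin, was at 2.40, 9.89, 4.33, 8.63 and 10.8 FPKM at M2 and at 19.1, 16.6, 41.6, 15.9 and 19.8 FPKM at M6. The lowest values came from M2-1 and M2-3 and the highest from M6-3. The log2 fold change of PDLIM3 was 1.73 (SE 0.48, adjusted p = 0.746), and without these 3 libraries it was 0.86. CHST9 (chr24:30016402-30297257), a sulfotransferase that acts on N-acetylgalactosamine of glycoprotein hormones and other glycans, was at 2.08, 1.48, 1.22, 1.88 and 0.718 FPKM at M2. Its M6 values were 4.22, 3.49, 6.04, 2.92 and 3.58 FPKM. The log2 fold change of CHST9 was 1.43 (SE 0.44, adjusted p = 0.746) and 1.41 without the 3 libraries.

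The other named higher genes differed by less than 1 on the log2 scale. CCDC47, part of a translocon of the endoplasmic reticulum, was at 21.2 ± 5.15 FPKM at M2 and 30.4 ± 2.55 FPKM at M6. ALG11, a mannosyltransferase of N-glycosylation, was at 5.41 ± 1.502 and 8.83 ± 1.55 FPKM. GORASP2, a protein that stacks the Golgi, was at 6.29 ± 1.89 and 10.1 ± 1.502 FPKM (SD, n = 5 each). In ALG11 and GORASP2 the library M2-1 was below all others, at 2.80 and 3.16 FPKM. APH1B, a subunit of gamma-secretase, and ANKH, a pyrophosphate transporter, had log2 fold changes of 0.66 and 0.55.

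RPA3, a subunit of the replication protein A complex, was at 15.5 ± 3.24 FPKM at M2 and 28.6 ± 9.23 FPKM at M6, with the highest value, 44.7 FPKM, in M6-3. TROVE2, the RNA-binding protein Ro60, had M2 libraries between 32.6 and 37.3 FPKM and M6 libraries between 40.5 and 60.2 FPKM. HTATSF1, a factor of transcription elongation and splicing, THG1L, a tRNA-histidine guanylyltransferase, and LACTB2, a mitochondrial endoribonuclease, had log2 fold changes of 0.52, 0.70 and 0.74. The 12 differences ranged from 0.51 to 1.73, and 2 of them reached 1. Without M2-1, M2-3 and M6-3 they ranged from 0.29 to 1.41.

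**Figure D2:**
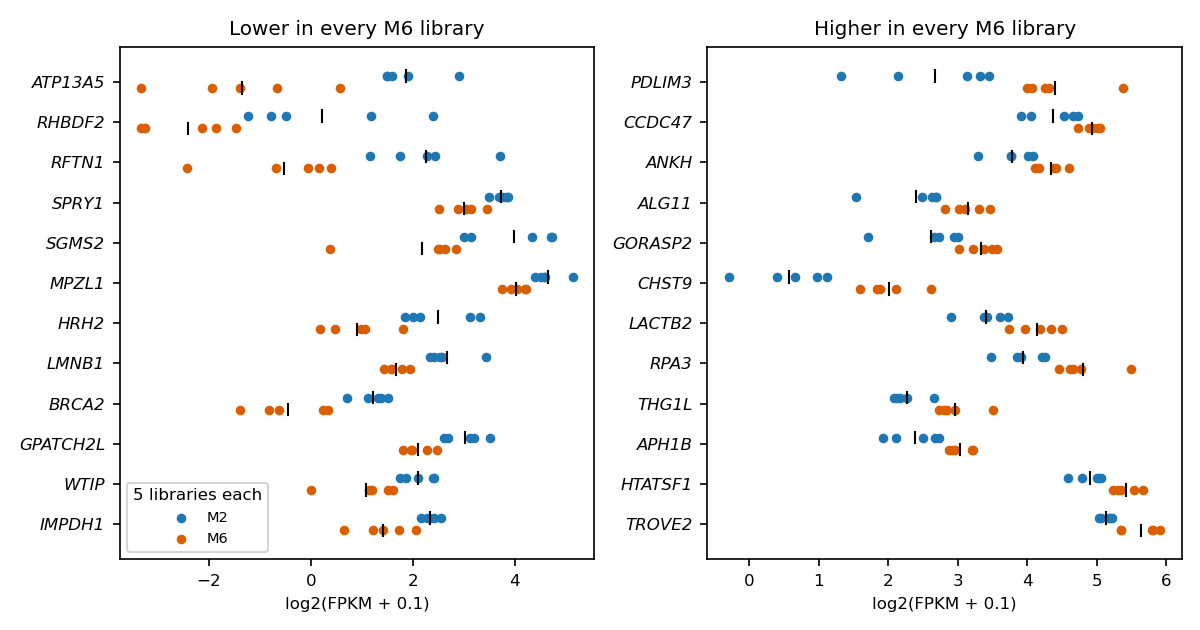
Each point is a library, with log2(FPKM + 0.1) on the x axis and the 12 named genes of each direction in rows (M2 blue, M6 orange, 5 libraries each, black ticks for stage means). The stages do not overlap in any row because the genes were chosen so. ATP13A5 shows the widest gap between the means, and PDLIM3 has its highest value in M6-3.

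A further 4 genes with small p stood outside this rule and were named after their values were seen. FGF1, a fibroblast growth factor, was at 6.66, 13.6, 10.1, 3.82 and 2.64 FPKM at M2 and at 54.3, 20.1, 61.8, 12.8 and 22.8 FPKM at M6 (log2 fold change 2.19, SE 0.55). Only M6-4 of FGF1 lay within the M2 range, and the difference was 2.18 without M2-1, M2-3 and M6-3. SEMA5B, a semaphorin of axon guidance, was at 3.55 ± 1.197 FPKM at M2 and 1.16 ± 0.585 FPKM at M6, with M2-3 below M6-5. IGF2BP3, an RNA-binding protein known from fetal tissue, was at 12.01 ± 6.72 and 3.98 ± 2.00 FPKM, with M6-3 above M2-5. DMRTA2, a transcription factor of the developing forebrain, had a mean below 1 FPKM at both stages. It ranged from 0.207 to 1.13 FPKM at M2 and from 0 to 0.134 FPKM at M6, without overlap (log2 fold change -2.28, SE 0.53). All 4 had an adjusted p of 0.746.

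At the other stages the named genes followed no single course. The genes were chosen because every M2 library lay beyond every M6 library, so an extreme M2 mean is partly fixed by the choice and nothing was read from it. In ATP13A5 the mean was 0.715 FPKM at D1 and 0.559 FPKM at M4, both close to M6 and below the lowest M2 library. In MPZL1 the highest mean was at D1, 30.6 FPKM, and in RPA3 the D1 mean of 33.4 FPKM was above the M6 mean. CHST9 was lowest at D1, with means of 1.37, 1.47, 2.20 and 4.05 FPKM from D1 to M6.

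**Figure D3:**
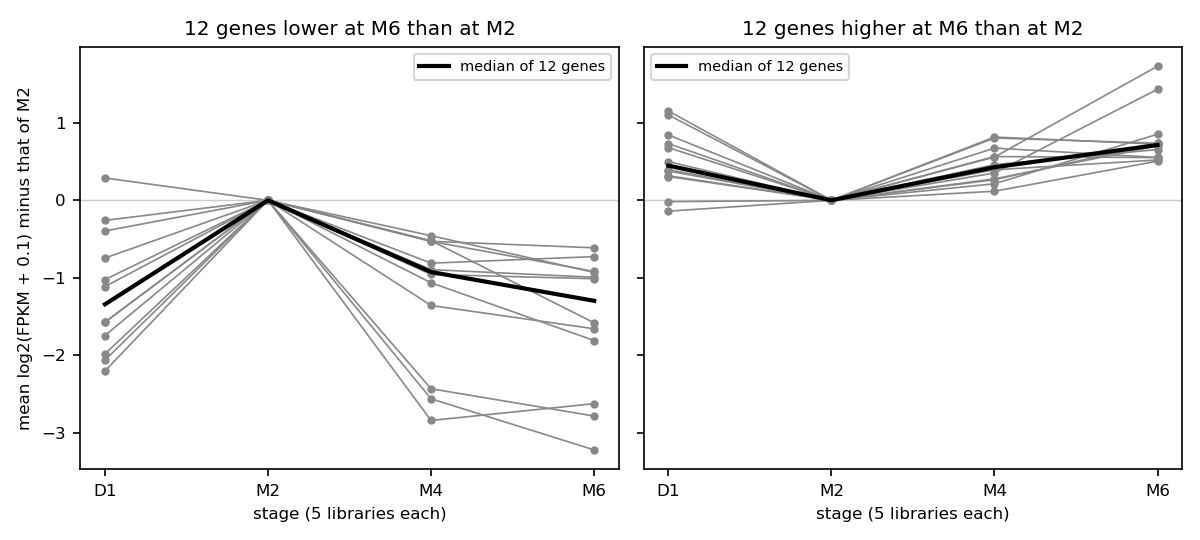
Each line is a named gene, with the stage on the x axis and its mean log2(FPKM + 0.1) minus that of M2 on the y axis (5 libraries per stage). The black line is the median of 12 genes. M2 is at 0 by construction, and in 11 of the 12 lower genes it was the highest mean and in 10 of the 12 higher genes the lowest, as the choice of genes favours.

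The 32 lists of genes held 747 different symbols, of which 671 were tested, and none of them was a DEG. Of the 671 genes, 9 were higher and 13 were lower at an unadjusted p under 0.05, or 3.28% against 6.14% of all genes. In 1 list gene, the clock gene BHLHE41, the stages did not overlap (0.149% against 0.757% of all genes). No adjusted p in these lists was below 0.746. In whole tissue, fewer cells of a type and less RNA per cell cannot be told apart, which holds for all lists below.

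**Figure D4:**
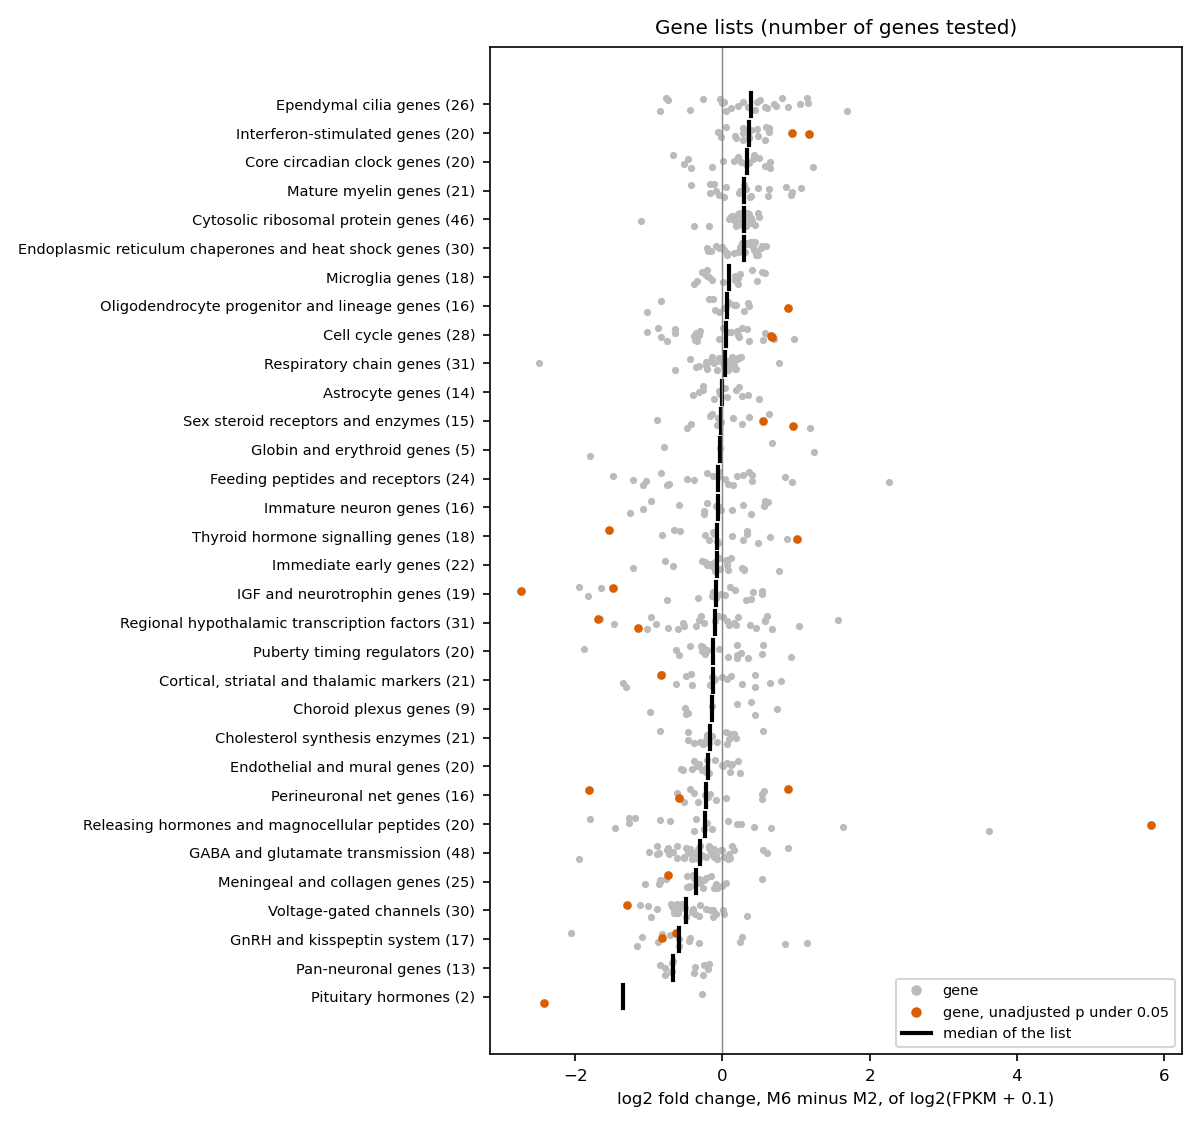
Each point is a tested gene of a list, with the log2 fold change of M6 minus M2 on the x axis and the lists in rows, ordered by median (black bar), with the number of genes tested in brackets. Orange points have an unadjusted p under 0.05. Most medians lie within 0.4 of 0. Those of the pan-neuronal, voltage-gated channel, GnRH and pituitary lists are more negative, the pituitary one from only 2 tested genes.

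Of the 17 tested genes of the GnRH and kisspeptin system, 4 were higher and 13 were lower at M6, with a median log2 fold change of -0.58 against 0.02 for all genes. GNRH1 was at 1.19, 0, 0, 14.6 and 0.165 FPKM in the M2 libraries and at 0, 0, 0, 0.863 and 0.860 FPKM in the M6 libraries. A single library, M2-4, held nearly all of it, and without M2-4 the log2 fold change of GNRH1 was 0.03 in place of -1.15. KISS1 was listed at 0 in all 5 M2 libraries and in 3 M6 libraries, and was at 0.191 and 0.139 FPKM in M6-4 and M6-5, below the filter of the test.

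TAC3 and PDYN, the other peptide genes of kisspeptin neurons, were likewise carried by a few libraries. TAC3 was highest in M2-4 (25.3 FPKM) and M6-4 (12.6 FPKM) and was listed at 0 in M6-1, M6-2 and M6-3. PDYN was at 100.4 FPKM in M2-4, 67.7 FPKM in M6-2 and 77.8 FPKM in M6-4, and at most 15.04 FPKM in the others. The receptor genes were low at both stages, with KISS1R at most 0.405 FPKM and TACR3 between 0.287 and 4.00 FPKM. The 2 genes of this list at an unadjusted p under 0.05 (11.8% of 17, against 6.14% of all genes) were both lower. ANOS1, which guides the migration of GnRH neurons, was at 9.41 ± 1.95 and 6.15 ± 1.68 FPKM (log2 fold change -0.63, SE 0.22, adjusted p = 0.746). FGFR1, a receptor needed for the same neurons, was at 6.11 ± 2.61 and 3.75 ± 2.07 FPKM (-0.82, SE 0.37), and its difference was -0.11 without M2-1, M2-3 and M6-3.

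Of the 15 tested genes of sex steroid receptors and enzymes, 7 were higher and 8 were lower, with a median of -0.02. ESR1, the estrogen receptor alpha, was at 3.18, 0.483, 1.73, 0.366 and 0.346 FPKM at M2 and at 0.729, 2.56, 1.91, 5.97 and 1.58 FPKM at M6, so the stages overlapped (log2 fold change 1.19, SE 0.81, and 2.14 without M2-1, M2-3 and M6-3). The progesterone receptor gene PGR was highest in M2-1 (4.12 FPKM) and M6-4 (2.96 FPKM). HSD17B4, a peroxisomal enzyme of steroid and fatty acid oxidation, was at 22.1 ± 5.75 and 31.7 ± 4.42 FPKM (0.55, SE 0.19), and STAR, which brings cholesterol into mitochondria, was at 0.114 ± 0.0926 and 0.296 ± 0.118 FPKM (0.95, SE 0.41). These 2 were the genes of the list at an unadjusted p under 0.05 (13.3% of 15, against 6.14% of all genes). Without M2-1, M2-3 and M6-3 neither was. The 20 puberty timing regulators had 9 higher and 11 lower genes, a median of -0.13 and none at an unadjusted p under 0.05. ERBB4, the neuregulin receptor of neurons and astrocytes, was at 77.3 ± 30.6 and 47.3 ± 5.43 FPKM, with the highest value, 124.9 FPKM, in M2-1.

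The largest positive fold change of all genes belonged to OXT. It was at 4.47, 0, 1.28, 0.162 and 0 FPKM in M2-1 to M2-5 and at 2.32, 36.9, 0.804, 412.9 and 278.8 FPKM in M6-1 to M6-5. M6-2, M6-4 and M6-5 were far above all M2 libraries, and M6-1 and M6-3 were within the M2 range. The log2 fold change was 5.81 (SE 1.97, 95% confidence interval 1.71 to 9.92, unadjusted p = 0.0078, adjusted p = 0.746, limma), and leaving out each library in turn kept it between 4.80 and 7.01. It was 8.68 without M2-1, M2-3 and M6-3, which include the highest M2 values of OXT. AVP had the same high libraries. It was at 1.48, 0.480, 0.974, 2.57 and 3.15 FPKM at M2 and at 1.56, 57.7, 1.83, 201.1 and 64.0 FPKM at M6 (log2 fold change 3.62, SE 1.81, adjusted p = 0.746).

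Other peptide genes were high in single M6 libraries. HCRT reached 182.8 FPKM and PMCH 374.7 FPKM in M6-5, while the other 9 libraries had at most 19.5 and 61.4 FPKM. CARTPT, which encodes a peptide that lowers food intake, was at 108.4 FPKM in M6-4 and at most 15.03 FPKM elsewhere. TRH, the releasing hormone of the thyroid axis, was at 55.0 FPKM and SST, which encodes somatostatin, at 123.0 FPKM in the same library. The SST means were 12.3 FPKM at M2 and 41.5 FPKM at M6, so other M6 libraries also held part of it. The log2 fold changes of these 5 genes ranged from -0.39 to 2.26, with standard errors between 1.03 and 1.97.

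Of 31 tested regional transcription factors, 14 were higher and 17 were lower at M6 (median -0.10, or 0.25 without M2-1, M2-3 and M6-3). The 2 at an unadjusted p under 0.05 were both lower (6.45% of the list against 6.14% of all genes). Single members were high in some of the libraries with high peptide values. SIM1 and OTP, transcription factors of the paraventricular nucleus, were at 13.6 and 11.1 FPKM in M6-4, against at most 1.93 and 3.17 FPKM in the other 9 libraries. M6-5, also high in OXT, had the next highest OTP, and M6-2 had a SIM1 of 1.05 and an OTP of 0.326 FPKM. The summed FPKM of the 37 regional transcription factors was between 36.7 and 89.1 at M2 and between 15.8 and 79.6 at M6, lowest in M6-3. The part of the sampled region in the peptide values was not tested. The arcuate peptides were low, with POMC at 2.77 ± 1.81 and 1.37 ± 0.912 FPKM and NPY at 2.91 ± 2.49 and 1.94 ± 2.74 FPKM. AGRP was at most 1.36 FPKM, in M6-4, and it was listed at 0 in 7 of the 10 libraries. Of the 24 feeding peptides and receptors 11 were higher at M6 (median -0.05), and of the 20 releasing hormones and magnocellular peptides 8 were higher (median -0.23). The second median was 0.15 without M2-1, M2-3 and M6-3.

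**Figure D5:**
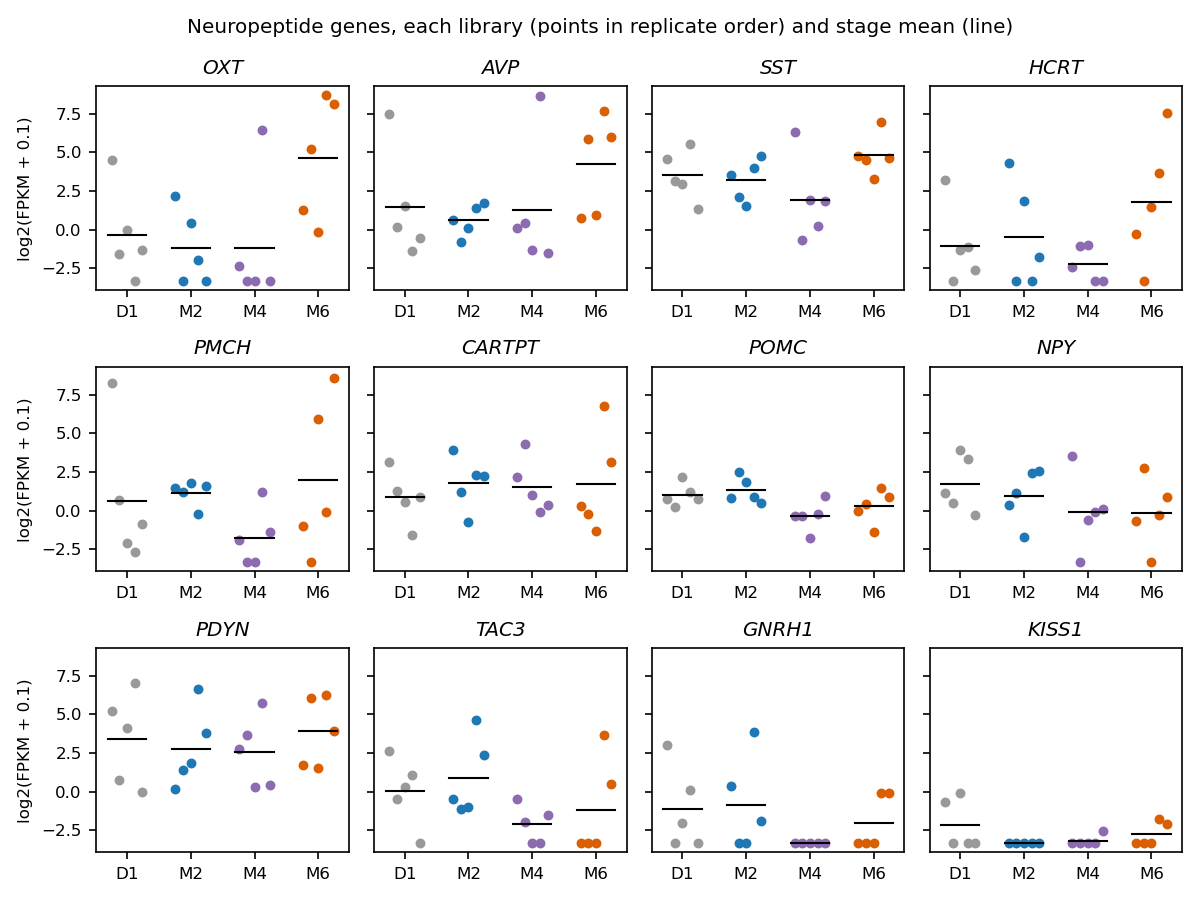
Each panel is a peptide gene, with the stage on the x axis and log2(FPKM + 0.1) on the y axis, each point a library in replicate order and the line the stage mean. The M6 points of OXT and AVP spread widely, with M6-2, M6-4 and M6-5 above all M2 points, while HCRT and PMCH have a single highest M6 point, in M6-5. KISS1 lies at the floor in every M2 library.

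The neuronal lists were lower at M6 in most genes. All 13 tested pan-neuronal genes were lower, with a median of -0.67, as were 39 of the 48 genes of GABA and glutamate transmission (median -0.31) and 27 of the 30 voltage-gated channels (median -0.50). In these 3 lists together 1 gene, SCN3B, had an unadjusted p under 0.05. That was 3.33% of the 30 channels and 0% of the other lists, against 6.14% of all genes. STMN2, a microtubule regulator of neurons, was at 57.1, 311.1, 104.3, 302.8 and 218.3 FPKM at M2 and at 160.8, 130.5, 13.996, 238.5 and 172.1 FPKM at M6. The library M6-3 was far below the rest, also in NEFL, the light neurofilament, with 6.80 FPKM against 57.5 to 133.1 FPKM. Without M6-3 the log2 fold changes of STMN2 and NEFL were 0.05 and 0.03, in place of -0.67 and -0.69. SCN3B, a beta subunit of sodium channels, was at 13.6 ± 8.29 and 5.42 ± 2.49 FPKM (-1.29, SE 0.51), and it was -1.33 without M2-1, M2-3 and M6-3. Without these libraries the medians were -0.44 for the pan-neuronal genes, -0.18 for transmission and -0.14 for the channels.

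The glutamate transporter gene SLC17A6 was at 21.8 ± 14.1 FPKM at M2 and 11.5 ± 14.8 FPKM at M6. GAD1 and GAD2, which encode the enzymes that make GABA, had log2 fold changes of 0.08 and 0.16. Among markers of other brain regions, the summed FPKM of the cortical, striatal and thalamic list was highest in M2-4 (288) and M6-2 (476), and its median was -0.13, or -0.30 without M2-1, M2-3 and M6-3. FOXP2, a transcription factor of striatal and thalamic neurons among others, ranged from 2.99 to 12.9 FPKM at M2 and from 2.40 to 6.08 FPKM at M6 (log2 fold change -1.15, SE 0.49). PRKCD, a kinase of thalamic and other neurons, had a difference of -0.84, or -0.45 without these libraries. The part of the dissection in these values was not tested.

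The myelin genes were high and variable. Of 21 genes, 15 were higher and 6 were lower at M6, with a median of 0.30 and none at an unadjusted p under 0.05. ERMN, a late myelin protein, was at 73.5, 247.6, 141.1, 133.2 and 248.0 FPKM at M2 and at 601.9, 356.0, 936.7, 52.6 and 323.4 FPKM at M6 (log2 fold change 1.07, SE 0.83, and 0.29 without M2-1, M2-3 and M6-3). M6-3 held the highest and M6-4 the lowest value, so the M6 range of ERMN contained all M2 values. ASPA, an enzyme of oligodendrocytes, was at 23.8 ± 8.75 and 50.6 ± 30.4 FPKM (SD, n = 5 each). The median of the list was 0.11 without M2-1, M2-3 and M6-3.

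The other cell type lists had medians near that of all genes or moved with the same libraries. The astrocyte and microglia lists had medians of -0.0045 and 0.09, with no gene at an unadjusted p under 0.05. Of 26 ependymal cilia genes 20 were higher (median 0.39), with the highest sum in M6-4 (318 FPKM) and the next in M6-3 (250 FPKM). The median of the ependymal genes was 0.76 without M2-1, M2-3 and M6-3. Of 25 meningeal and collagen genes 23 were lower (median -0.35). The sum of that list was 520 FPKM in M2-3, against 95.2 to 209.8 in the other 9 libraries, and the median was 0.14 without the 3 libraries. The endothelial and mural list likewise went from -0.19 to 0.29, and the choroid plexus list from -0.14 to 0.34. COL4A1, a collagen of basement membranes, was the gene of these 6 lists at an unadjusted p under 0.05. That was 4% of the 25 meningeal and collagen genes and 0% of the other lists, against 6.14% of all genes. The log2 fold change of COL4A1 was -0.74, and it was -0.18 without the 3 libraries. The part of vessels, meninges and choroid plexus in the results was not tested.

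The 9 listed genes of the pituitary hormone list were low. Their summed FPKM was between 0.738 and 3.77 at M2, highest in M2-3, and between 0 and 1.64 at M6. PRL, which encodes prolactin, was not matched, and the part of pituitary tissue in the samples was not tested. TSHB was listed at 0 in all 10 libraries, GH1 in 9, FSHB in 8 and POU1F1, a transcription factor of the cells that make growth hormone and thyrotropin, in 8. CGA, the common alpha subunit of the glycoprotein hormones, was at 0.738, 0, 2.12, 0.502 and 0.802 FPKM at M2. At M6 it was listed at 0 in 4 libraries and was at 0.130 FPKM in M6-4 (log2 fold change -2.42, SE 0.64, unadjusted p = 0.0011, adjusted p = 0.746). LHB, the beta subunit of luteinizing hormone, was at most 0.734 FPKM, in M2-3, the library that was also highest in CGA and FSHB.

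Thyroid hormone signalling had 8 higher and 10 lower genes and a median of -0.07, or 0.14 without M2-1, M2-3 and M6-3. KLF9, a transcription factor induced by thyroid hormone and glucocorticoids, was at 11.8, 34.4, 26.2, 32.2 and 23.98 FPKM at M2 and at 65.1, 69.0, 63.4, 23.9 and 41.6 FPKM at M6. Only M6-4 lay within the M2 range (log2 fold change 1.02, SE 0.30, unadjusted p = 0.0030, adjusted p = 0.746). DIO2, the deiodinase that makes active thyroid hormone, was at 6.505 ± 3.05 and 3.07 ± 3.08 FPKM (-1.53, SE 0.62). The differences of KLF9 and DIO2 were 0.62 and -1.24 without M2-1, M2-3 and M6-3.

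Of the 19 IGF and neurotrophin genes 8 were higher and 11 were lower (median -0.09). IGFBP3, a carrier of insulin-like growth factors, was at 2.04 ± 1.47 FPKM at M2 and 0.733 ± 0.674 FPKM at M6 (log2 fold change -1.49, SE 0.62, adjusted p = 0.746), and its difference was -0.68 without M2-1, M2-3 and M6-3. Of the 16 genes of perineuronal nets, the matrix coats that form around neurons, 5 were higher and 11 were lower (median -0.22). HAPLN3, a link protein, was at 7.13 ± 5.38 and 1.98 ± 1.84 FPKM (-1.80, SE 0.57), with the highest values in M2-1 and M2-3, and it was -0.82 without the 3 libraries. NCAN, which encodes neurocan, was at 22.6 ± 7.99 and 14.7 ± 4.00 FPKM (-0.59), while VCAN, which encodes versican, was at 15.4 ± 5.21 and 28.6 ± 8.15 FPKM (0.89).

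Some lists of broad cell functions had most genes higher at M6. Of 20 interferon-stimulated genes 18 were higher (median 0.36), led by the RNA sensor gene IFIH1 at 1.70 ± 0.676 and 4.30 ± 2.67 FPKM (log2 fold change 1.18) and by HERC6 (0.95). Of 46 cytosolic ribosomal protein genes 43 were higher (median 0.30), and of 30 chaperones of the endoplasmic reticulum and heat shock genes 24 were higher (median 0.29). The ribosomal sum was lowest in M2-3 and the chaperone sum in M2-1, and their medians were 0.13 and 0.07 without M2-1, M2-3 and M6-3. Of 20 clock genes 15 were higher (median 0.34), and BHLHE41, a transcriptional repressor of the clock, had M2 libraries between 8.29 and 12.6 FPKM and M6 libraries between 13.4 and 24.2 FPKM (0.62, SE 0.30). The hours of tissue collection are not given in the sources used here. The cell cycle, immediate early, immature neuron, cholesterol synthesis, respiratory chain, oligodendrocyte lineage, globin and erythroid lists had medians between -0.16 and 0.06. PCNA (0.67), MCM3 (0.66) and VCAN were their genes at an unadjusted p under 0.05. They made up 7.14% of the 28 cell cycle genes, 6.25% of the 16 oligodendrocyte lineage genes and 0% of the others, against 6.14% of all genes. With M2-1, M2-3 and M6-3 left out, these medians ran from -0.33 for cholesterol synthesis and -0.28 for the cell cycle to 0.49 for the globin and erythroid list, and PCNA was 0.15.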

How the data were processed

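Hypothalamic RNA of 20 goats was sequenced at 4 stages with 5 goats each. After trimming with fastp, the authors mapped reads to ARS1.2 by HISAT2 2.0.5, built transcripts by StringTie 1.3.3b and deposited FPKM values for 21071 genes, of which 20610 matched the RefSeq genes of the same assembly. Low values were not whole multiples of a step, so depth was not recovered, and the SD between goats and limma's standard errors give the precision.

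The 16771 genes that reached 0.1 FPKM in 5 or more libraries were transformed to log2(FPKM + 0.1). A fold change on this scale understates the change of low genes. All 20 libraries were fitted with limma 3.58.1 (R 4.3.3), as 4 stages without a block, with a variance trend, and p-values were adjusted by Benjamini-Hochberg over all genes. The fit was tested on simulated data. P-values measure the spread between goats, 1 library each. Single library measures were compared by two-sided exact permutation tests. Python 3.11.15, pandas 2.3.3, numpy 2.4.6, scipy 1.17.1 and matplotlib 3.10.9 were used.

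The named genes are the DEGs, filled to 12 in each direction with the genes of smallest unadjusted p that have a symbol, a mean of at least 1 FPKM and no overlap, up to 4 genes of smallest p in each list, marker genes, and the gene with the largest share of a library that stands apart. The comparison, the lists and the libraries left out were chosen with earlier results of these data known. The alternatives were other pseudocounts, filters, normalizations, weights, a fit of 10 libraries, a replicate block and libraries left out. Clean reads and mapping rates were not used here, nor were lncRNA transcripts analysed. Values of some list genes are not reported here.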

Additional observations from a re-analysis of the deposited data

Results flagged for a closer look

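Among 122 named genes, each group of 5 libraries was examined for a highest or lowest library far from the others on the log2(FPKM + 0.1) scale (Dixon's test). A total of 22 of 244 groups were picked out. Chance picks out about 1 in 20 among independent, normally distributed groups. These groups share the same 10 libraries and many genes were chosen by their values, so no excess was read from the count. In CGA and NEUROD6 at M6 the other libraries were all at 0, so any value above 0 is picked out. The library M6-3 was lowest in NEFL (6.80 FPKM), STMN2 (13.996), SCN3B (1.41), KCNJ8 (2.00) and SGMS2 (1.198), and highest in PDLIM3 (41.6). M6-4 was highest in CGA (0.130), DMRTA2 (0.134) and DNAH5 (8.58), and lowest in ENPP2 (21.7) and SORT1 (29.7). M6-5 was highest in NEUROD6 (0.0555) and RPS28 (273.5) and lowest in PRKAA1 (15.6). M6-2 was highest in FOXP2 (6.08). At M2, M2-1 was lowest in ALG11 (2.80), GORASP2 (3.16) and SORT1 (22.7) and highest in LMNB1 (10.8). M2-3 was highest in COL3A1 (45.9) and lowest in SEMA5B (1.51), and M2-5 was highest in MPZL1 (35.0).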

How the results depend on the processing

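The count of DEGs was 0 in both directions under each of the 22 alternatives, except for 1 lower gene under 3 of them. With a pseudocount of 1 that gene was ATP13A5 (log2 fold change -1.72), and it was ATP13A5 again without M6-4 (-3.70). Without M2-5 it was LOC102170015 (-3.32, adjusted p 0.0175), named after its values were seen, which was at 0.718 to 2.50 FPKM in the other M2 libraries and at 0 in M2-5. Leaving out each library in turn gave 0 to 1 lower DEGs, 301 to 850 higher and 308 to 801 lower genes at an unadjusted p under 0.05, and 113 to 319 higher and 58 to 146 lower genes without overlap. The counts at an unadjusted p under 0.05 moved by over 1.5 times without M2-4 (850 higher), M6-1 (357 higher), M6-3 (301 higher and 308 lower) and M6-5 (801 lower). Without M2-3 and M6-3 together they were 253 and 229, with 177 and 102 genes without overlap. Without M2-1, M2-3 and M6-3, a choice made after seeing the data, they were 228 and 153, with 402 and 253 genes without overlap. Fewer libraries overlap less by construction. Median-ratio scaling left 49 higher genes without overlap, in place of 86.

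Of 2672 log2 fold changes of 122 genes under the alternatives, 2658 kept their direction and their side of the threshold and 12 turned. AQP1 was 0.23 with quality weights. CLDN5 was 0.033 without M2-3 and M6-3 and 0.27 without these and M2-1, and leaving out each library in turn gave -0.67 to 0.00092, the latter without M2-3. In the same way GNRH1 ranged from -1.77 to 0.033 (without M2-4), NEFL from -1.04 to 0.029 and STMN2 from -1.05 to 0.053 (both without M6-3). Without M2-1, M2-3 and M6-3, COL4A2 was 0.14, PDGFRB 0.0050, PRKAA1 -0.044, SC5D -0.039 and STMN1 -0.054. The cause was not tested. The endothelial and mural median was 0.20 with quality weights and 0.29 without the 3 libraries, and the globin and erythroid median was -0.91 with a filter on mean FPKM.

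Same-numbered M2 and M6 libraries deviated from their stage means with correlations of -0.14 to 0.17, and pairs of other numbers with -0.19 to 0.31. So few pairs cannot settle whether equal numbers share more than a name, and no conclusion was drawn from them. A replicate block gave 0 DEGs in both directions and 499 higher and 449 lower genes at an unadjusted p under 0.05. The reads behind single FPKM values were not recovered, so no limit from counting is given for genes listed at 0.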
